A study of Drosophila melanogaster with 26 samples.

Results

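The comparison concerns the RSF-1 antibody on chromatin that lacks RSF-1 and on chromatin that has it. Its members are 3 of the 26 peak lists of the study, namely RSF1-Rb from rsf-1 embryos (replicate 1, the only mutant library) and RSF1-Rb from wild-type (WT) embryos (replicates 1 and 2), taken by the antibody and genotype in the sample labels. The rsf-1 list holds 5346 peaks, against 5636 peaks in WT replicate 1 and 3545 peaks in WT replicate 2, and these 14527 of the 50336 peaks of the study merged into 6426 regions. Peaks were counted as shared when at least 50 bp of them overlapped.

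RSF is a nucleosome remodeling factor of the ISWI family. Its ATPase ISWI slides nucleosomes along the DNA and sets their spacing, and RSF-1 is the large subunit that tells RSF apart from the other complexes built on ISWI. In ChIP, an antibody to RSF-1 is meant to pull down the DNA fixed next to the protein. Chromatin of embryos without the protein therefore measures what the same serum, beads and peak calling give in the absence of the antigen.

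The mutant embryos carried rsf1-3602, an allele made by imprecise excision of a P-element that deleted sequence at the 5′ end of RSF-1, and the study describes them as making no RSF-1. The WT embryos were of the Oregon-R strain. All embryos were collected at 0–12 h, were fixed with 3.7% formaldehyde (FA), and were immunoprecipitated with 1 rabbit polyclonal antibody. The rsf-1 library came from chromatin batch 9, WT replicate 1 from batch 10 and WT replicate 2 from batch 6, so that genotype and batch of chromatin cannot be told apart. A mutant library with no second of its kind has no replicate spread, and nothing in the labels says whether the WT libraries came from separate collections of embryos.

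The remaining libraries serve here as readouts that had no part in choosing the regions. They are 10 ACF1 libraries, 10 input libraries of sheared chromatin without antibody and 3 libraries made with pre-immune serum. ACF1 is the signature subunit of other ISWI complexes. Of the ACF1 libraries, 3 came from embryos of the acf1-7 allele, which the study describes as making no ACF1, and 7 from WT embryos. The rat monoclonal antibody 3F1 gave 3 of them, all WT and from batches 1 to 3. The rabbit polyclonal antibodies Rb1 and Rb2 gave the rest, from other batches. The inputs were 7 WT, 2 acf1 and 1 rsf-1. All 3 pre-immune libraries are labelled ACF1 and WT, so none is a pre-immune control of the RSF-1 serum. The ACF1 lists hold 1001 to 5184 peaks, the input lists 193 to 2359 and the pre-immune lists 1 to 621. The lists give positions alone, without score or read number, so a region missing from a list was not called there at a depth that is unknown.

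Most places that the RSF-1 antibody picked out of WT chromatin were also picked out of chromatin without RSF-1. Of the 6426 regions, 3069 were held by all 3 lists (47.8% of the regions). A further 1790 were held by the rsf-1 list and WT replicate 1, and 64 by the rsf-1 list and WT replicate 2. The rsf-1 list alone held 423 regions. Both WT lists and not the rsf-1 list held 109 regions, WT replicate 1 alone 668 and WT replicate 2 alone 303.

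**Figure D1:**
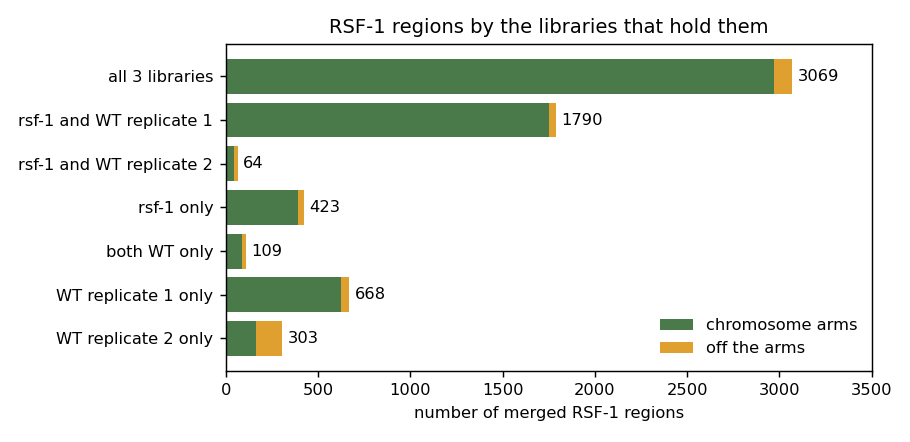
Number of merged RSF-1 regions (x axis) in each of the 7 classes given by the libraries that hold them, split into the chromosome arms (green) and all other sequence of the assembly (off the arms, orange). The bar for all 3 libraries reaches 3069 regions, whereas the bar for regions of both WT libraries without rsf-1 reaches 109.

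Counted as peaks, 4923 of the 5346 rsf-1 peaks were shared with at least 1 WT list (92.1%, exact 95% interval 91.3 to 92.8%). The rsf-1 list shared 90.9% of its peaks with WT replicate 1 and 58.5% with WT replicate 2, which is the shortest of the lists. In the other direction, 86.2% of the peaks of WT replicate 1 and 88.2% of those of WT replicate 2 were found in the rsf-1 list. The WT lists shared 56.1% of WT replicate 1 and 89.3% of WT replicate 2 with each other. These intervals treat peaks as independent and cover counting error only.

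At full list length, overlap of the mutant list with the WT lists was close in size to that between the WT lists. The 3 libraries cannot test the difference. With each pair scored by its shorter list, overlap was 90.9% for rsf-1 and WT replicate 1 and 88.2% for rsf-1 and WT replicate 2, or 89.5% on average, and 89.3% within WT, a difference of 0.25 percentage points (two-sided exact permutation test over the 3 libraries, p = 1, where the smallest possible p is 0.333, so that the test cannot pass). The number of peaks on a log2 scale after adding 1 was 12.38 for rsf-1 and 12.13 ± 0.47 for WT (SD, n = 2), a difference of 0.26, which is less than the SD of the WT libraries. The overlap difference changed sign under other settings, to -2.14 points with an overlap of at least 150 bp, -1.45 on the chromosome arms alone and -0.44 without peaks found in input. With every list shortened to 3545 peaks it was 5.68 points. At that length rsf-1 shared 90.5% of its peaks with WT replicate 1 and 76.0% with WT replicate 2. WT replicate 1 then shared 77.5% with WT replicate 2, so the closeness in size depended on list length.

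A region held by a pair of lists can be looked up in the remaining list, although the lists differ in length. The rsf-1 list held 3069 of the 3178 regions of the WT pair (96.6%, interval 95.9 to 97.2%). WT replicate 1 held 3069 of the 3133 regions shared by rsf-1 and WT replicate 2 (98.0%, interval 97.4 to 98.4%). WT replicate 2 held 3069 of the 4859 regions shared by rsf-1 and WT replicate 1 (63.2%, interval 61.8 to 64.5%). The rate of the mutant lay between those of the WT libraries. With every list shortened to 3545 peaks, the rates were 94.5% for rsf-1, 96.7% for WT replicate 1 and 81.3% for WT replicate 2, in the same order and with a narrower gap.

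The centres of shared peaks lay close together whatever the genotype. The median offset was 16 bp between rsf-1 and WT replicate 1, 20 bp between rsf-1 and WT replicate 2, and 16 bp between the WT replicates. Offsets of at most 50 bp made up 89.5%, 83.2% and 89.0% of the shared peaks in that order of pairs. Requiring 150 bp of overlap instead of 50 bp raised the rsf-1-only regions to 844 and the regions of both WT lists without rsf-1 to 214, and it lowered the share of rsf-1 peaks found in WT to 84.2%.

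The order of the peaks was much alike in the lists. They are not sorted by chromosome, and the files do not say what sets their order, so place means here the line of a peak in its list, counted from the top. Among the 3069 regions of all 3 lists, Spearman's rho of their order was 0.92 for rsf-1 and WT replicate 1, 0.83 for rsf-1 and WT replicate 2, and 0.85 for the WT replicates. These are descriptions over regions that share sequence and libraries, not tests. The median shift of a region was 167 positions between rsf-1 and WT replicate 1, 263 between rsf-1 and WT replicate 2, and 253 between the WT replicates.

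**Figure D2:**
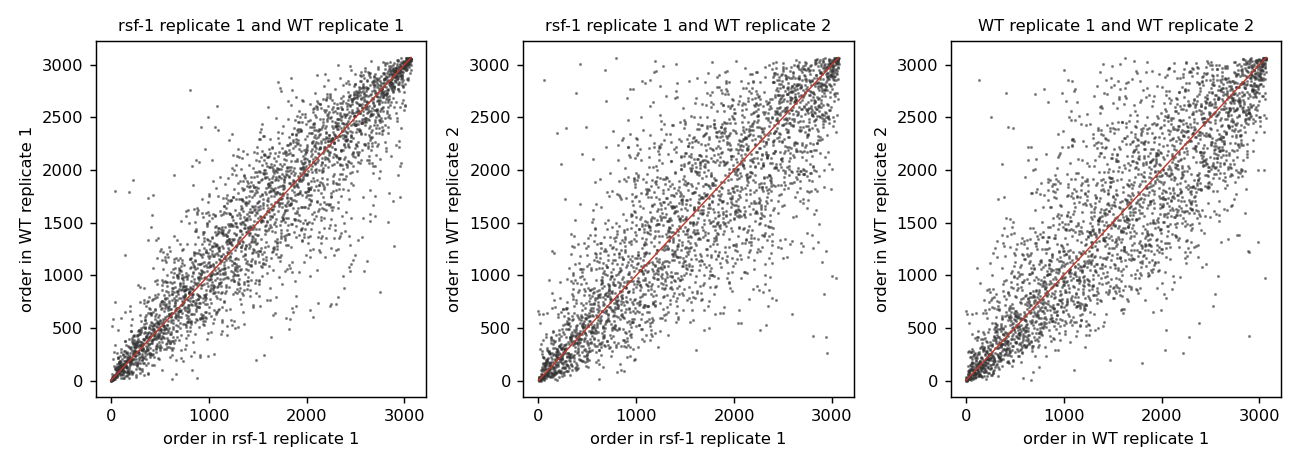
Order of the 3069 regions held by all 3 lists, ranked among themselves by their place in each list, for rsf-1 against WT replicate 1 (left), rsf-1 against WT replicate 2 (middle) and the WT replicates (right). Each point is 1 region and the red line marks equal order; points lie nearest to the line on the left, where rho is 0.92.

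Peaks at the head of each list were nearly all found somewhere in the other lists, and peaks at the tail were not. Each list was cut into 10 parts of equal length in its own order. In the first part of the rsf-1 list, 99.4% of peaks were shared with WT replicate 1 and 97.4% with WT replicate 2, against 61.1% and 16.8% in the last part. For WT replicate 1, 99.5% of the first part and 43.4% of the last were found in the rsf-1 list, and for WT replicate 2 these shares were 99.4% and 35.2%. The fall was of the same kind between the WT lists, where WT replicate 2 shared 98.9% of its first part and 38.6% of its last with WT replicate 1. Sharing with WT replicate 2 fell early in both longer lists, to 63.6% in part 5 of rsf-1 and 65.6% in part 5 of WT replicate 1. Agreement on which peaks came first was lower. When only the first 100 peaks of every list were kept, rsf-1 shared 60% of them with WT replicate 1 and 53% with WT replicate 2, and WT replicate 1 shared 62% with WT replicate 2. For the first 500, rsf-1 shared 81.2% of them with WT replicate 1 and 74.2% with WT replicate 2, and WT replicate 1 shared 75.4% with WT replicate 2.

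**Figure D3:**
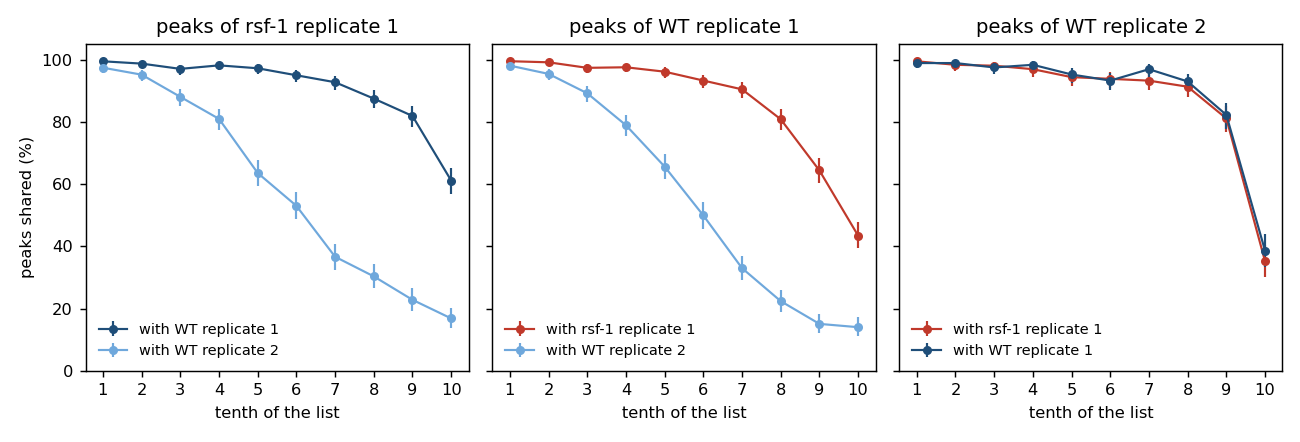
Percentage of peaks shared with each other RSF-1 list (y axis) by part of the list, from the first to the last of 10 equal parts (x axis), for the peaks of rsf-1 (left), WT replicate 1 (middle) and WT replicate 2 (right). Bars are exact 95% intervals of the percentage; every curve starts between 97.4% and 99.5%, and the last points lie between 14.0% and 61.1%.

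Unshared regions sat accordingly deep in the lists. The rsf-1-only regions had a median place of 4719 of 5346, and 5 of the 423 were among the first 1000. Regions of WT replicate 1 alone had a median place of 4955 of 5636 and those of WT replicate 2 alone of 3337 of 3545. The regions of both WT lists without rsf-1 had median places of 4312 in WT replicate 1 and 2839 in WT replicate 2. Regions of all 3 lists stood higher, at medians of 1657 in rsf-1, 1626 in WT replicate 1 and 1577 in WT replicate 2.

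The high-placed peaks that did lack a partner usually had one nearby. The first rsf-1 peak without any WT partner, at place 278 on 2R, lay 322 bp from the nearest WT peak, measured between centres. The next were chr3R:16927405-16927605 at place 458, chr3L:21278767-21278967 at place 834, chr3L:16704978-16705178 at place 838 and a peak on 2R at place 925, with WT peaks 364, 282, 211 and 346 bp away. The WT lists mirrored this. The region chr3R:16927769-16927977 stood at places 632 and 575 of the WT lists with an rsf-1 peak 368 bp away, and chr3L:14183473-14183673 at place 608 of WT replicate 1 alone with an rsf-1 peak 271 bp away. At the head of WT replicate 2, chr3R:14068243-14068443 (place 191) and chr2L:8083263-8083463 (place 453) had rsf-1 peaks 234 and 308 bp away, whereas chr2LHet:187691-187891 between them (place 340) was 3668 bp from the nearest rsf-1 peak and was called in 3 inputs. The peaks near chr3R:16927405 and chr3R:16927769 are windows side by side, counted as 1 rsf-1-only and 1 WT-only region.

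Over the whole classes, 83 of the 423 rsf-1-only regions had a WT peak within 500 bp (19.6%), and 37 of the 109 regions of both WT lists without rsf-1 had an rsf-1 peak as close (33.9%). Among the first 1500 places of the rsf-1 list, 11 rsf-1-only regions had such a neighbour and 1 had none. Among the first 1500 places of WT replicate 1, 9 regions of both WT lists without rsf-1 had such a neighbour and 1 had none. The regions with none were chr2L:9612734-9612934 at place 1270 of the rsf-1 list, 3936 bp from the nearest WT peak, and 1 region on 2L described next.

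**Figure D4:**
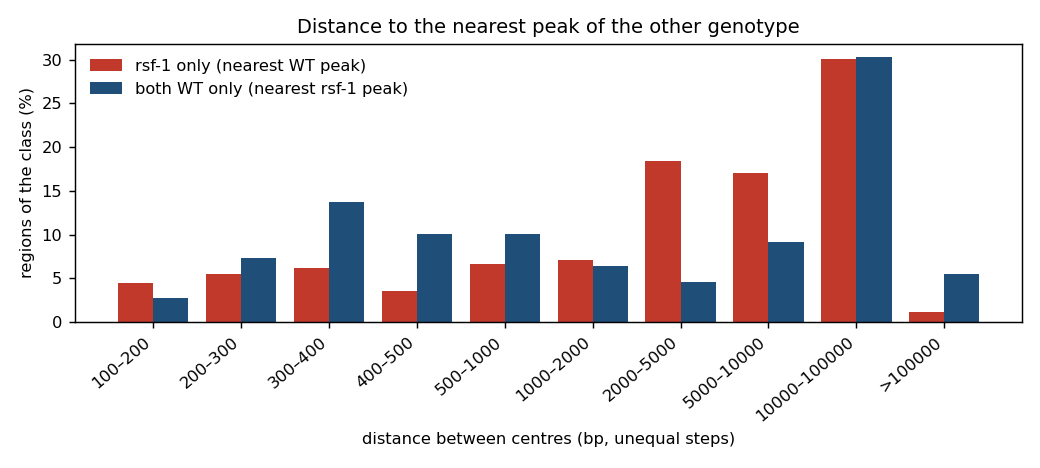
Distance from the centre of each region to the nearest peak of the other genotype (x axis, in steps of unequal width) for the 423 rsf-1-only regions (red) and the 109 regions of both WT lists without rsf-1 (blue), as a percentage of each class (y axis). Within 500 bp lie 19.6% of the rsf-1-only regions and 33.9% of the regions of both WT lists without rsf-1.

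The region chr2L:21221123-21221340 was called in both WT libraries, at places 464 of 5636 and 593 of 3545, and not in the rsf-1 library, whose nearest peak was 2643 bp away. It was singled out after its values were seen. Among the 72 regions of both WT lists with no rsf-1 peak within 500 bp it had the highest place in WT replicate 1, and the next, chr3L:13997193-13997411, stood at place 1851. The study's map of the RSF-1 locus, whose genome build is not stated there, draws the 5′ end of the gene in this stretch of 2L. Within 20000 bp there were 2 other regions, chr2L:21218466-21218689 and chr2L:21237044-21237249, and all 3 lists held both of them, the second at place 174 in rsf-1, 243 in WT replicate 1 and 197 in WT replicate 2. The peak was called in 1 of the 3 ACF1 libraries from acf1 embryos and in 4 of the 7 from WT embryos, none of which carry rsf1-3602 by their labels, and in no input or pre-immune library. The limits of the deletion were not given in the sources used here, and DNA that is absent and a peak that is not called cannot be told apart in these lists.

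The same look-up was made with a WT library as the one left out. WT replicate 1 lacked 64 regions that rsf-1 and WT replicate 2 shared, 24 of them with a peak of its own within 500 bp, and of the other 40 the highest stood at place 774 of the rsf-1 list. WT replicate 2 lacked 1790 regions that rsf-1 and WT replicate 1 shared, 1735 of them with no peak of its own within 500 bp, the highest at place 177 of the rsf-1 list. Within the first 1500 places, 1 such region was missing from rsf-1, 2 from WT replicate 1 and 58 from WT replicate 2.

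The classes were spread over all chromosomes. On the arms, the 2971 regions of all 3 lists fell 23.7% on 3R, 20.6% on X, 19.2% on 2R, 18.0% on 3L, 16.6% on 2L and 1.9% on 4. The 388 rsf-1-only regions on the arms were divided alike, with 22.2% on 3R (interval 18.1 to 26.6%), 23.2% on X (19.1 to 27.7%) and 19.8% on 3L (16.0 to 24.2%). The 86 regions of both WT lists without rsf-1 had more of their members on 3L, 29.1% (19.8 to 39.9%), and fewer on 3R, 12.8% (6.6 to 21.7%). Looked up from the other side, the rsf-1 list held 95.5% of the WT-pair regions on 3L (interval 93.5 to 97.1%) and 98.5% of those on 3R (97.3 to 99.2%), with the other arms between 96.6 and 97.6%. The arms 3L and 3R were picked out of 6 after their values were seen, and the 25 regions on 3L and 11 on 3R are few.

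Sequence off the arms held 404 of the 6426 regions (6.29%), nearly all of it heterochromatic or unplaced and 2 regions mitochondrial, and its share differed between classes. It was 8.3% for rsf-1-only regions (interval 5.8 to 11.3%), 21.1% for regions of both WT lists without rsf-1 (13.9 to 30.0%), 6.9% for WT replicate 1 alone, 46.5% for WT replicate 2 alone (40.8 to 52.3%) and 3.2% for regions of all 3 lists (2.6 to 3.9%). Peaks off the arms crowded the end of each list, with 98 in the last of the 10 parts of rsf-1, 96 in that of WT replicate 1 and 177 in that of WT replicate 2. Off the arms the rsf-1 list held 98 of 121 WT-pair regions (81.0%, interval 72.9 to 87.6%), and WT replicate 1 held 98 of the 118 regions shared by rsf-1 and WT replicate 2 (83.1%, 75.0 to 89.3%). WT replicate 2 held 98 of the 139 regions shared by rsf-1 and WT replicate 1 (70.5%, 62.2 to 77.9%). Some of the shared regions stood high, such as chr2RHet:1-147 at place 197 in rsf-1, 679 in WT replicate 1 and 4 in WT replicate 2. That region was also called in 7 of 10 input libraries.

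Input lists held 193 to 2359 peaks, with a median of 258.5, and pre-immune lists held 1 to 621. A short list limits the share of the RSF-1 regions that it can call. The longest input list, of 2359 peaks, was near the ACF1 median of 2565. No input called more than 2.2% of the regions of all 3 lists, against a median of 52.3% for ACF1 libraries. The part of list length in the input shares was not tested. The pre-immune libraries are labelled ACF1, so they are no matched background of the RSF-1 serum. Of all 6426 regions, 5.94% were called in at least 1 of the 10 inputs and 2.23% in at least 1 of the 3 pre-immune libraries. For regions of all 3 lists these shares were 3.1% and 1.5%, and each single input called 1.8 to 2.2% of them. The rsf-1-only regions were called in 1.2 to 6.4% per input, with 5.0% in the input of their own batch. The regions of both WT lists without rsf-1 were called in 6.4 to 17.4% per input, the lowest being the rsf-1 input and the highest the input of batch 6, from which WT replicate 2 was made. Of the 24 that any input called, 5 were on the chromosome arms. In the rsf-1 list 113 peaks (2.1%) overlapped the input of their own batch, against 122 (2.2%) in WT replicate 1 and 146 (4.1%) in WT replicate 2. Those input lists hold 213, 265 and 250 peaks in that order, so these overlaps are large beside the input lists.

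**Figure D5:**
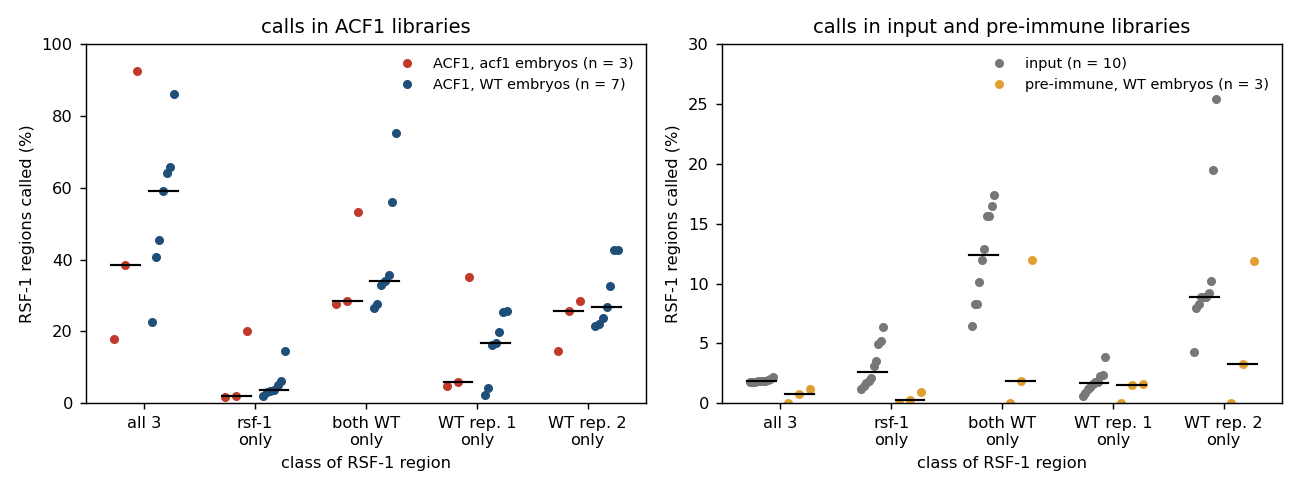
Percentage of the RSF-1 regions of each class (x axis) called in each library of another kind (y axis, scales differ between panels), with ACF1 libraries from acf1 and WT embryos on the left and input and pre-immune libraries on the right. Each point is 1 library and the black lines are medians; in the ACF1 libraries the rsf-1-only regions lie at 1.7 to 20.1%, with the lowest medians of the classes drawn.

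Antibodies to ACF1, another protein, called the RSF-1 regions to very different degrees by class. At least 1 ACF1 library called 84.1% of all regions and at least 5 called 35.3%. For the regions of all 3 lists these shares were 97.2% and 61.6%, so that 85 of 3069 were seen with the RSF-1 antibody alone, for example chr2L:5982395-5982597 at place 1507 in rsf-1, 1710 in WT replicate 1 and 647 in WT replicate 2. For the rsf-1-only regions they were 33.6% and 1.7%, and 281 of 423 had no ACF1 call. For the regions of both WT lists without rsf-1 they were 95.4% and 40.4%, with 5 of 109 lacking any. Taken singly, the ACF1 libraries of WT embryos called a median of 59.0% of the regions of all 3 lists (22.6 to 86.2%, n = 7). Those of acf1 embryos, which lack ACF1, called a median of 38.5% (17.8 to 92.5%, n = 3).

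Averaged over the 8 batches of chromatin used for ACF1, an ACF1 library called 57.5% of the regions of all 3 lists and 7.2% of the rsf-1-only regions. The difference of 50.4 ± 18.2 percentage points (SD, n = 8 batches) had the same sign in all 8 (exact sign-flip permutation over batches, two-sided p = 0.0078, adjusted p = 0.0078 over 3 such comparisons, the smallest that 8 batches allow). The rsf-1-only regions were called less often than regions found in WT alone, 7.2% against 23.7%, a difference of -16.6 ± 7.2 points (same test and p). Those WT-only regions lay off the arms in 19.4% of cases and were called in an input in 14.8%. For rsf-1-only regions these shares were 8.3% and 9.5%. On the arms alone the difference was -14.9 points. Set against the regions of both WT lists without rsf-1, the values were 7.2% for rsf-1-only and 42.4% for the WT-pair regions, which were thus 35.2 ± 16.8 points higher (same test and p). Without WT replicate 1, 2221 regions counted as rsf-1-only, and the WT-only and WT-pair classes became the same 420 regions of WT replicate 2. The last 2 comparisons were then 1 test with opposite signs, which did not pass (-12.1 and 12.1 points, exact sign-flip permutation, p = 0.18). Regions of all 3 lists or of both WT lists needed more lists to hold them than rsf-1-only regions did. A difference of that sign is thus favoured by the way the classes were made. The SD and p measure the spread over ACF1 batches on fixed sets of regions. They carry no spread of the RSF-1 lists and do not test genotype, since 1 mutant library made the rsf-1-only class.

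These classes differ in how many lists had to hold a region and in where it stood, and the part of either in the ACF1 calls was not tested. Regions of a single list at a like place can be set side by side, a comparison chosen after the values were seen. The rsf-1-only regions, at a median 88.3% of the way down their list, were called less often than those of WT replicate 1 alone, at 87.9%, in 10 of 10 ACF1 libraries. The means over batches were 7.2% and 18.5%, a difference of -11.3 ± 6.3 points (SD, n = 8 batches). By batch it ran from -19.5 to -0.41 points. The gap was smallest in batch 6, with 3.0% against 3.4%. That SD covers the spread of the ACF1 batches alone. Each of these classes came from 1 RSF-1 library, so the difference does not test genotype. No ACF1 library came from batch 9 or batch 10, so neither single list shared its chromatin with an ACF1 library. None of the ACF1 libraries came from rsf-1 embryos, and the ones from batch 6 share their chromatin with WT replicate 2.

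A few regions went against their class. Of the 423 rsf-1-only regions, 7 were called in at least 5 ACF1 libraries, although no WT RSF-1 list held them. Among these, chr3L:10684026-10684226, at place 3742, was called in 9 of 10 ACF1 libraries. The regions chr2L:2957104-2957304 and chrX:10815780-10815980 were called in 5 each, as was the 2R region at place 278. Conversely, chr3L:15547450-15547650 and chr3R:3300351-3300574 were held by both WT lists, at places 2863 and 4739 of WT replicate 1, and by 9 ACF1 libraries each, but not by rsf-1, whose nearest peaks were 308 and 898 bp away. Of the regions of both WT lists without rsf-1, 5 had no call in any other library of the study, 1 of them on unplaced sequence. Those on the arms were chr3L:10654467-10654684, chr3L:13997193-13997411, chr3L:14749476-14749739 and chrX:9586752-9586952, at places 1713, 1851, 3624 and 3893 of WT replicate 1, with rsf-1 peaks 398, 1217, 915 and 1105 bp away.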

How the data were processed

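The deposited files are peak lists, 1 per library, whose only values are the start and end of each peak. The authors mapped uniquely aligned reads to Release 5 (dm3) of the Drosophila genome with Bowtie 1.1.1, per the labels, then ran the peak caller HOMER with its default options. Nearly all peaks are 200 bp wide. Positions are given as deposited. Depth per library is not given in the sources used here.

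Peaks of the 3 RSF-1 lists were merged into regions when at least 50 bp overlapped, and regions were classed by the lists that hold them. Overlaps of 1 and 150 bp, the arms alone, lists of equal length, lists without the peaks that overlap their own input, and each library left out were also tried. Percentages carry exact (Clopper-Pearson) 95% intervals. ACF1 calls were compared by exact sign-flip permutation over chromatin batches, with libraries of a batch averaged and Benjamini-Hochberg adjustment over 3 comparisons, and libraries by exact permutation over genotype labels. The threshold on p was 0.05. Regions were named in order of position or of place in the list, with 5 at most per class. Members, lists and rules were chosen with earlier results of these data known. Place is the line of a peak in its list.

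Python 3.11.15 was used with scipy 1.17.1, numpy 2.4.6 and, for plots, matplotlib 3.10.9, and the steps were tested on simulated data. Genes and promoters were not assigned, since the gene table at hand belongs to another release of the genome, and no sequence is shown.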

Additional observations from a re-analysis of the deposited data

How the results depend on the processing

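The ACF1 comparison of regions of all 3 lists with rsf-1-only regions kept its sign and its call under all 20 alternatives tried (34.0 to 53.0 points, p = 0.002 to 0.031 by exact sign-flip permutation). Its sign is favoured by the way the classes were made, and p covers the spread of the ACF1 libraries alone. The comparisons of rsf-1-only regions with WT-only regions and of WT-pair regions with rsf-1-only regions kept their sign under all alternatives. They lost the call only when WT replicate 1 was left out (-12.1 and 12.1 points, exact sign-flip permutation, p = 0.18). With 1 WT library left out these 2 comparisons are 1 test with opposite signs, since both WT classes then come from a single list. With 1 library of any kind left out the 2 comparisons were -17.4 to -11.0 and 11.0 to 37.2 points. An overlap of at least 150 bp gave 844 rsf-1-only, 1805 WT-only and 214 WT-pair regions, 92.6% of WT-pair regions called in rsf-1 and 84.2% of rsf-1 peaks shared with WT. On the arms alone 97.2% of WT-pair regions were called in rsf-1. Lists of equal length gave 248 rsf-1-only regions, 94.5% of WT-pair regions called in rsf-1 and 93.0% of rsf-1 peaks shared. With 1 WT library left out, regions of all lists numbered 3125 to 4857, rsf-1-only regions 489 to 2221, WT-only regions 420 to 779 and WT regions without rsf-1 420 to 779. The share of WT regions called in rsf-1 was then 86.2 to 88.2% and that of rsf-1 peaks shared 58.5 to 90.9%. The pair overlap across minus within genotype changed sign, to -2.14 points at 150 bp, -1.45 on the arms and -0.44 without input peaks, with p = 1, 0.333 and 1 by exact permutation. With lists of equal length it kept its sign and rose to 5.68 points. With 1 WT library left out the log2 difference in peak number was -0.076 (without WT replicate 2, a change of sign) to 0.59. No paired analysis was possible because the rsf-1 library shares its chromatin batch with neither WT library. With 1 mutant library, unknown depth and no scores, a region absent from a list cannot be told from a weak one.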
